A study of Drosophila melanogaster with 4 samples.

Results

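The regions described here are the HP2 enrichment sites of euchromatic 3R, the right arm of chromosome 3 of Drosophila melanogaster without its centromere-side 2 Mb and its outermost 200 kb. They are all deposited clusters on 3R whose midpoint lies between these limits on FlyBase r5, where the arm has a stated length of 27905053 bp, and the stretch between the limits measures 25.71 Mb. This rule uses position alone, though it was chosen with earlier results of these data known. It took 686 of the 4728 clusters of replicate 1, 537 of the 4163 of replicate 2, and 955 of the 7037 of the authors' combined list. A cluster is 1 region that the authors called significantly enriched in chromatin immunoprecipitation followed by sequencing (ChIP-seq), a method that recovers DNA fixed to a protein with an antibody and sequences it.

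The study held 4 samples: 2 ChIP samples made with the HP2 antibody Ab2-90, and 2 inputs of unprecipitated chromatin, 1 for each ChIP replicate. All 4 came from head nuclei of Oregon-R flies of wild type genotype, labelled Mixed Adult and reared in population cages, and the labels name no treatment. Every ChIP sample belongs to 1 group, so no condition is compared and no test between groups exists. Values are given per replicate, or as the mean with the SD over both (n = 2), and the labels do not tell whether separate collections of flies were used, so the spread may be technical. Read counts are not part of the lists, so depth is unknown, and no list measures gene expression, so the head label was not checked against markers. Heads mix many cell types, and strong binding in few nuclei cannot be told apart from weak binding in many.

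HP2 is a nonhistone chromatin protein that binds heterochromatin protein HP1, the reader of methylated histone H3 that packs pericentric DNA into heterochromatin. Loss of HP2 function is known to relieve the silencing of reporter genes placed next to heterochromatin, an effect called suppression of position effect variegation. Both proteins are best known at the chromocentre and on chromosome 4. Euchromatin is the gene-rich, less compact remainder of the arms, where HP1 is also found at scattered sites, active genes among them.

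On euchromatic 3R the sites were short, scattered islands. Replicate 1 had 26.7 clusters per Mb and replicate 2 had 20.9, a mean of 23.8 ± 4.10 (SD, n = 2). Together they covered 1.48 Mb in replicate 1 and 1.13 Mb in replicate 2, which is 5.78% and 4.41% of the stretch, or 5.09% ± 0.97 (SD, n = 2). The combined list was denser, with 37.2 clusters per Mb over 1.97 Mb (7.67%).

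Most sites were called with nearly the same length. Their medians were 2059.5 bp (replicate 1) and 2036 bp (replicate 2), a mean of 2048 ± 16.6 bp (SD, n = 2), and the middle 50% of lengths ran from 1887 to 2270 bp in replicate 1 and from 1875 to 2214 bp in replicate 2. Clusters of at least 1800 and under 2400 bp made up 60.3% of replicate 1 and 64.1% of replicate 2. A smaller group lay between that peak and the shortest length of 1301 bp in replicate 1 and 1304 bp in replicate 2: 139 clusters (20.3%) and 118 clusters (22.0%) were under 1800 bp. Long domains were rare. Only 15 clusters of replicate 1 (2.19%) and 8 of replicate 2 (1.49%) reached 4000 bp, and the longest cluster of each measured 9513 and 9499 bp. In the combined list 131 clusters (13.7%) were shorter than 1300 bp, a length that neither replicate's list contained, and its shortest measured 1001 bp. The caller and its settings are not stated, so how far they set these lengths is not known.

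**Figure D1:**
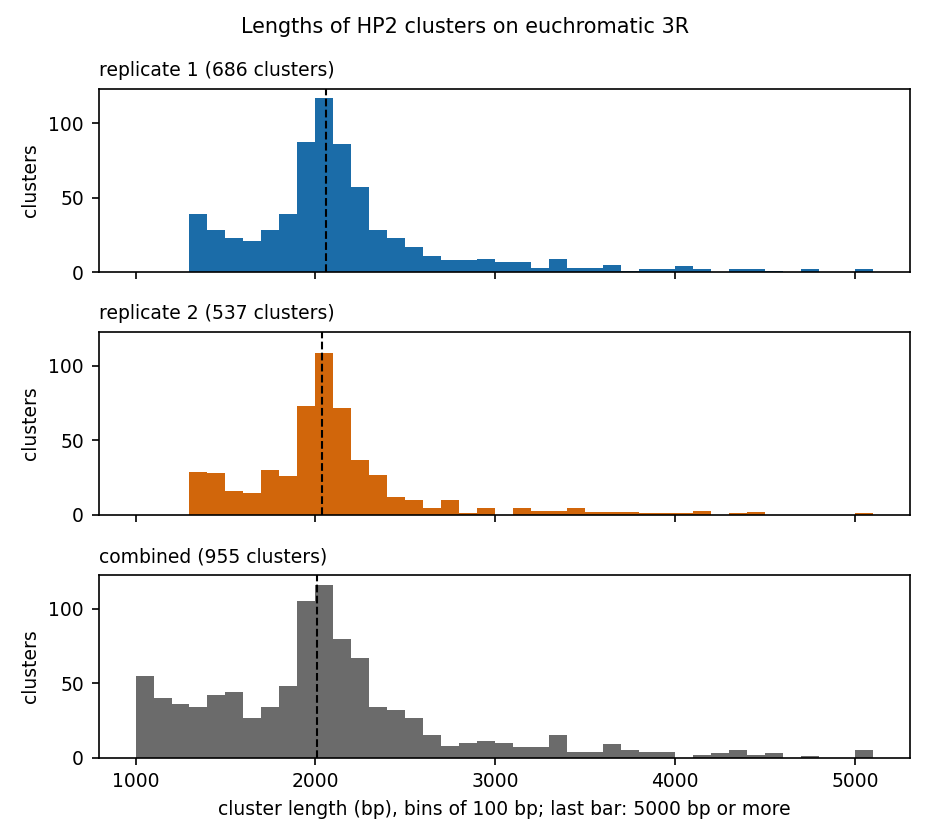
Number of clusters of euchromatic 3R by length in bp (bins of 100 bp, last bar 5000 bp or more) in replicate 1, replicate 2 and the authors' combined list; dashed lines are the medians of 2059.5, 2036 and 2007 bp. All 3 lists peak near 2 kb, and the combined list alone extends below 1300 bp.

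The score is the authors' own value per cluster. The sources used here do not state its scale. It is used to rank and describe clusters within a list, and is set side by side between lists at the same sites. Whether the lists share a scale is not known, so differences in score between lists are descriptive only. Its median was 0.609 in replicate 1 and 0.599 in replicate 2, with quartiles of 0.458 and 0.970 in replicate 1 and of 0.452 and 0.928 in replicate 2. Most sites scored below the median of their whole list. The whole lists had medians of 0.719 and 0.717, and 40.4% and 40.6% of the members reached them. Of the members, 54 in replicate 1 (7.87%) and 50 in replicate 2 (9.31%) lay among the best-scoring 10.0% of their whole list, so the share was a little below that background in each. Longer clusters scored higher: across clusters, which share a library and are not independent replicates, Spearman's rho of length and score was 0.80 in replicate 1 (n = 686) and 0.81 in replicate 2 (n = 537).

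Sites were found along the whole arm. In 3 equal stretches of 8.57 Mb, replicate 1 had 27.1 clusters per Mb on the centromere side, 27.5 in the middle and 25.4 on the telomere side, and replicate 2 had 22.1, 20.5 and 20.1. These differences along the arm were smaller than the gap between the replicates. The median score moved little as well, from 0.591 to 0.628 over the 3 stretches in replicate 1 and from 0.578 to 0.671 in replicate 2, and was highest on the centromere side in both.

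On a finer scale the density varied, and both replicates varied together. Among the 25 full bins of 1 Mb, replicate 1 held 17 to 47 clusters with a median of 26, and replicate 2 held 12 to 33 with a median of 20. The richest bin was the same in both, from 5000001 to 6000000, with 47 clusters (9.51% covered) and 33 clusters (6.84%). In replicate 2 the bin from 20000001 to 21000000 also held 33, against 36 in replicate 1. The bin that follows the richest, from 6000001 to 7000000, was the poorest of replicate 1 with 17 clusters and held 15 in replicate 2. The poorest of replicate 2, from 15000001 to 16000000, held 12 clusters there and 22 in replicate 1. Across the 25 bins, Pearson's r between the replicates was 0.88 and Spearman's rho 0.87, a description of bins of 1 genome that share its sequence and mappability. Replicate 1 had more clusters in 24 bins and the same number in the other one, from 3000001 to 4000000, with 19 in each.

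**Figure D2:**
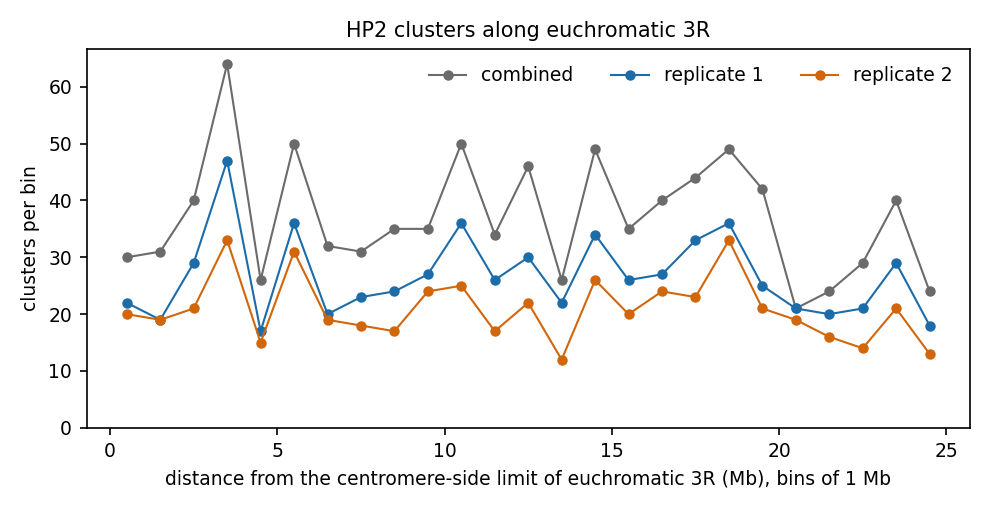
Clusters per 1 Mb bin along euchromatic 3R against the distance in Mb from its centromere-side limit, for replicate 1, replicate 2 and the combined list. The lines rise and fall together, with the highest bin of replicate 1 (47 clusters) 3 to 4 Mb from the limit, and show no steady trend towards either end.

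Spacing between neighbours was very uneven, from 17 bp up to 370877 bp in replicate 1 and 398594 bp in replicate 2. Median gaps were 17964 bp (replicate 1) and 25159.5 bp (replicate 2), and the mean gaps were 35023 and 45404 bp, so a minority of long gaps took up much of the arm. Of the gaps, 34.3% in replicate 1 and 27.1% in replicate 2 were at most 10 kb. A few neighbours almost touched. Gaps of at most 500 bp occurred 21 times in replicate 1 and 14 times in replicate 2. Of the 21 pairs in replicate 1, 12 were also called as 2 separate clusters in replicate 2 and none as 1 cluster there, and the combined list joined 4 of them. Of the 14 pairs in replicate 2, 9 were separate in replicate 1 and 4 were a single cluster. Isolated sites, with at least 50 kb free on both sides, numbered 47 in replicate 1 (6.85%) and 55 in replicate 2 (10.2%). Their median score was 0.575 and 0.496, a little under that of all members, and their median length was 2021 and 1962 bp.

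**Figure D3:**
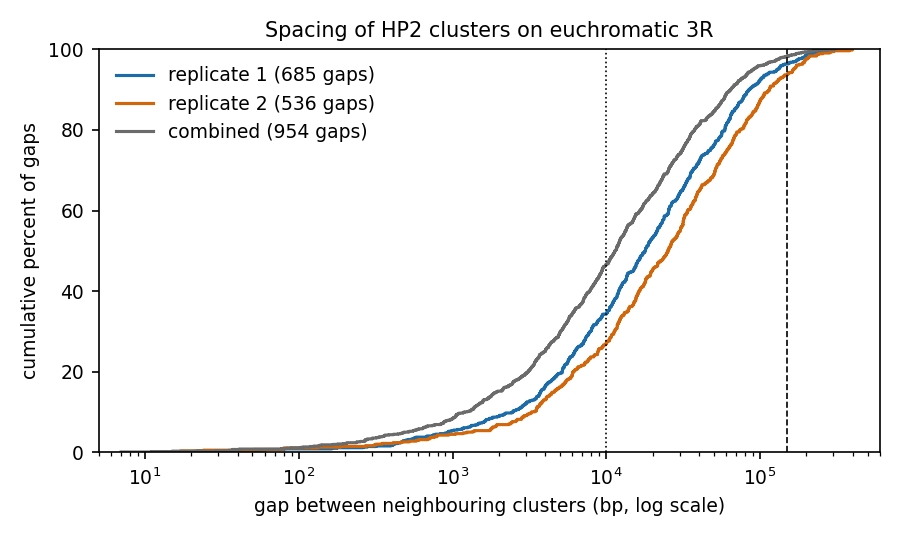
Cumulative percent of gaps between neighbouring clusters by gap length (bp, log scale) in replicate 1, replicate 2 and the combined list. The dotted line marks 10 kb, the longest gap inside a crowd, and the dashed line 150 kb, the shortest empty stretch; the curve of replicate 2, which had fewer clusters, lies to the right of the others over most of the range.

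A crowd was defined as a run of at least 5 clusters with no gap over 10 kb. Crowds were few and small: 10 in replicate 1, holding 58 clusters (8.45%), and 4 in replicate 2, holding 23 (4.28%). Of these, 3 crowds overlapped a crowd of the other replicate, which is 3 of 10 in replicate 1 and 3 of 4 in replicate 2. Crowded sites scored no higher than others. In replicate 1 their median was 0.563 against 0.617 outside crowds, and in replicate 2 it was 0.584 against 0.600.

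The crowd with most clusters spanned 57.5 kb from 12049420 to 12106921. Replicate 1 called 8 clusters in it, with scores from 0.325 to 1.08 and 37.3% of its bases covered. Replicate 2 had 7 clusters in the same stretch and the combined list 9, so the crowd was called in each list with slightly different pieces. A cluster of 3468 bp in replicate 1, from 12066016 to 12069483, was 2 clusters in replicate 2 with a gap between 12067315 and 12067728. The outermost clusters of replicate 1 on either side, with scores of 0.563 and 0.381, had no counterpart in replicate 2.

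**Figure D4:**
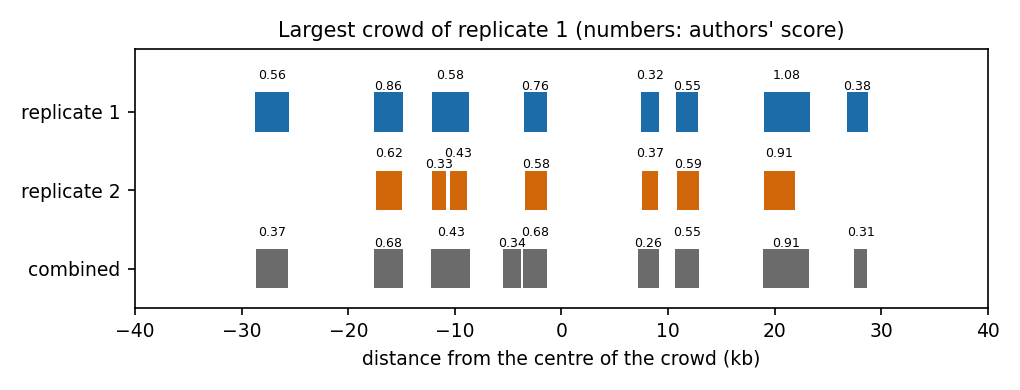
Clusters of replicate 1, replicate 2 and the combined list in the crowd with most clusters, drawn to scale against the distance in kb from its centre; numbers are the authors' scores, whose scale is not given. Replicate 1 has 8 clusters, replicate 2 has 7 and the combined list 9, at nearly the same places.

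The other recurring crowds had 5 clusters each and were called alike in both replicates and in the combined list, which is no further sample. That from 20849883 to 20876239 spanned 26.4 kb, with 5 clusters in replicate 1, 5 in replicate 2 and 5 in the combined list, and scored at most 0.842 in replicate 1. The crowd from 23077992 to 23115440 spanned 37.4 kb with 5 clusters in every list and scores from 0.576 to 1.65 in replicate 1. Other crowds of replicate 1 were thinner in replicate 2. From 5587991 to 5636197 there were 7 clusters in replicate 1 and 5 in replicate 2, and from 7566780 to 7613626 there were 7 and 4. From 15685838 to 15717700 there were 6 and 3. The crowds that begin at 8516278 and 10103603 had 5 clusters each in replicate 1 and 3 each in replicate 2. In 2 crowds, which were picked out after their values were seen, most sites were absent from replicate 2. The crowd from 5895154 to 5920630 and the crowd from 12864911 to 12885895 had 5 clusters each in replicate 1 and 1 each in replicate 2, and their highest scores were 0.494 and 0.564. Replicate 2 in turn had a crowd of 6 clusters from 7034568 to 7071216, with scores up to 1.90, where replicate 1 had 5 clusters that did not meet the spacing rule.

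Dense stretches were also sought without a rule on spacing, in sliding windows of 200 kb. Of 2551 windows, the median one had 5.33% of its bases in clusters of replicate 1 and 4.12% in those of replicate 2, while the fullest reached 18.3% and 15.3%. By the mean of both replicates the densest window ran from 5500001 to 5700000. Replicate 1 covered 18.3% of it with 17 clusters and replicate 2 14.8% with 13. It contains the crowd of 7 clusters that begins at 5587991. The next, from 11010001 to 11210000, was 17.0% and 15.3% covered by 14 and 13 clusters, and had the highest coverage of any window in the combined list (21.1%) and in replicate 2, there level with the window that starts 10 kb earlier. It holds 2 of the 10 highest-scoring shared sites and the second-longest shared one, yet no crowd under the spacing rule in either replicate. The 3 windows after it, starting at 7420001, 19930001 and 12060001, were 15.9%, 14.4% and 14.1% covered in replicate 1 and 10.9%, 11.9% and 11.9% in replicate 2.

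Empty stretches, gaps of at least 150 kb, took up more of the arm than the sites did. Replicate 1 had 25 of them over 5.17 Mb (20.1% of the stretch) and replicate 2 had 34 over 7.10 Mb (27.6%). Of the 25 in replicate 1, 23 (92%) lay for at least 50% of their length in 1 of replicate 2. The same held for 21 of the 34 in replicate 2 (61.8%) in 1 of replicate 1. Replicate 2 had fewer clusters, and 93.1% of them had at least 50% of their bases in clusters of replicate 1. The 92% therefore largely follows from the sharing of sites and is no separate recurrence of gaps. Long stretches free of clusters in both replicates numbered 23 and made up 4.77 Mb (18.6%). Of these 23, 9 also held no cluster of the combined list, and the others held 21 combined clusters in all, at most 4 in a stretch. That no site was called in a stretch does not show that it lacks HP2.

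The longest stretch empty in both replicates ran over 371 kb, from 11247402 to 11618278. It begins 37.4 kb beyond the second-densest window. The combined list placed 1 cluster of 1001 bp in it, with a score of 0.357. The second, from 6720402 to 7022332 (302 kb), had 1 combined cluster of score 0.338, and the third, from 8546721 to 8822641 (276 kb), had none. The stretches from 18580414 to 18835211 (255 kb, 1 combined cluster of score 0.396) and from 7948050 to 8181018 (233 kb, none) came next. Where the flanking site recurred, the edges of both lists lay close together at some stretches and further apart at others. At the first stretch the flanking cluster on the centromere side ended at 11247401 in replicate 1 and at 11246869 in replicate 2. The third ended at a cluster that started at 8822642 in replicate 1 and at 8822658 in replicate 2, with scores of 1.20 in each. The second began after a cluster that ended at 6720401 in replicate 1 (score 1.51) and at 6720345 in replicate 2 (score 1.36). Flanking sites could be weak too, as beside the stretch that begins at 7948050, where the clusters on the centromere side scored 0.324 and 0.193. In replicate 2 the longest gap was another one, 399 kb from 23973413 to 24372006, which replicate 1 broke with 3 clusters scoring at most 0.576.

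Recurrence of single sites was counted by bases: a cluster counts as shared if the other replicate covers 50% or more of it. In replicate 1, 496 of the 686 members were shared, 72.3% (95% Wilson interval 68.8% to 75.5%), against 74.3% over the whole list. In replicate 2, 500 of the 537 were shared, 93.1% (90.6% to 94.96%), against 83.5% over the whole list. The intervals cover counting error only, and the members are part of the whole list they are set beside, so no test was made. Sharing was nearly all or none. Of the 190 unshared members of replicate 1, 189 touched no cluster of replicate 2 at all, and of the 37 unshared of replicate 2, 36 touched none of replicate 1. The bases called in both replicates came to 1.05 Mb, or 66.9% of those called in either, 70.6% of those of replicate 1 and 92.6% of those of replicate 2.

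Unshared sites tended to be short and low-scoring. In replicate 1 they had a median length of 1780.5 bp against 2138.5 bp for shared sites, and a median score of 0.447 against 0.777. In replicate 2 the medians were 1620 bp against 2060.5 bp, and 0.469 against 0.622. Among members of replicate 1 at or above the median score of the whole list, 275 of 277 were shared (99.3%, 95% Wilson interval 97.4% to 99.8%), and among those below it 221 of 409 (54.0%, 49.2% to 58.8%). In replicate 2 the counts were 216 of 218 (99.1%, 96.7% to 99.7%) and 284 of 319 (89.0%, 85.1% to 92.0%). The fall with the score was thus larger in replicate 1, which had the longer list. Of its clusters ranked in 5 equal groups by score, the lowest group was shared at 39.9% (32.1% to 48.2%) and the middle group at 69.3% (61.2% to 76.4%), while all 137 clusters of the highest group were shared. Length went the same way: clusters of replicate 1 under 1800 bp were shared at 30.2% (23.2% to 38.3%), those from 1800 to under 2400 bp at 80.4% (76.3% to 84.0%) and longer ones at 91.0% (84.9% to 94.8%). In replicate 2 the lowest group by score was shared at 88.0% (80.5% to 92.8%) and the next at 85.2% (77.3% to 90.7%). Most of its clusters under 1800 bp were shared as well, at 75.4% (66.9% to 82.3%). Length and score move together, so their parts in the recurrence cannot be told apart here. All these shares count clusters of any score in the other replicate. Where both lists were limited to clusters at or above their whole-list median score, 75.1% of replicate 1 and 95.4% of replicate 2 were shared.

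By distance to shared clusters, the unshared sites were not set apart. In replicate 1 their median distance to the nearest shared cluster was 11968 bp, and the shared clusters themselves lay a median of 12539 bp from their nearest shared neighbour. In replicate 2 the values were 12201 and 12317 bp. Inside crowds, 36 of the 58 clusters of replicate 1 were shared (62.1%), against 72.3% of all its members. For replicate 2 it was 22 of 23 (95.7%), against 93.1%. By bins of 1 Mb, sharing ranged from 54.5% to 90.5% in replicate 1 with a median of 72.4%, and from 78.9% to 100% in replicate 2 with a median of 93.9%. In 8 of the 25 bins every cluster of replicate 2 was shared, and in none of them every cluster of replicate 1.

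**Figure D5:**
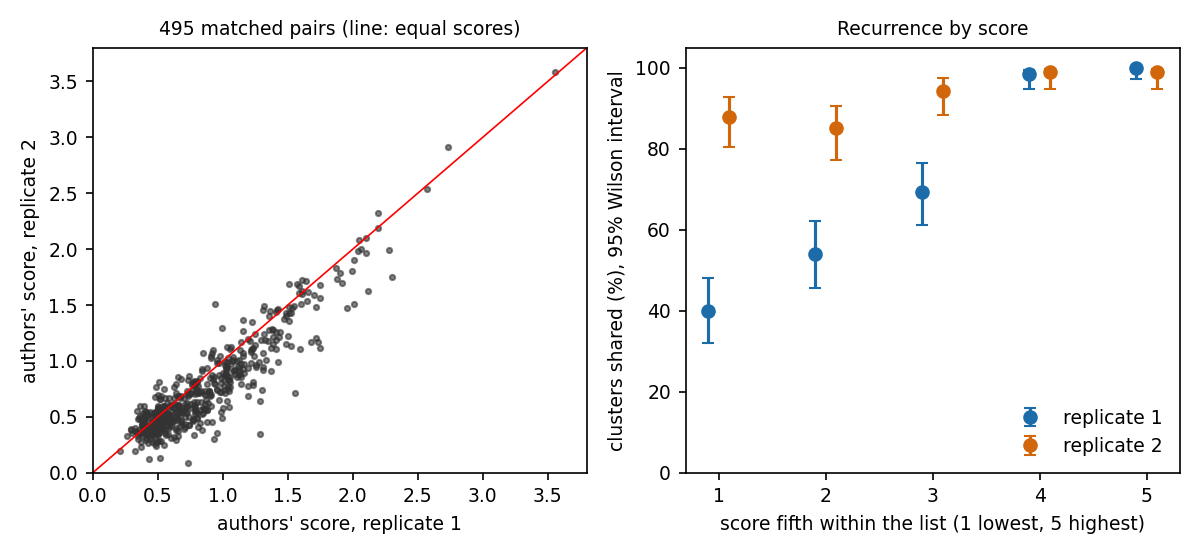
Left, the authors' score of each of 495 matched pairs of clusters in replicate 1 and replicate 2, with a line of equal scores; right, the percent of clusters shared in 5 equal groups of a list by score, with 95% Wilson intervals. Pairs follow the line with most points below it, and sharing rises with the score from 39.9% to 100% in replicate 1.

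Where a site was called in both replicates, it was called at the same place. Matching clusters one by one, with at least 50% overlap of both, gave 495 pairs. Their midpoints differed by a median of 42.5 bp, by at most 100 bp in 367 pairs (74.1%), and by 1016.5 bp at most. The rule of 50% overlap itself limits these offsets. Clusters of replicate 1 were the longer of the pair in 390 cases (78.8%), by a median of 78 bp, and the higher-scoring in 364, by a median of 0.095. It is not known whether the scores of both lists share a scale. Across the 495 pairs Pearson's r of the scores was 0.92 and Spearman's rho 0.86, which describes clusters of 2 libraries and not independent replicates. Of the 50 best-scoring members of each list, 41 were matched to each other.

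The strongest site of euchromatic 3R ran over 4086 bp from 2904984 to 2909069. It ranked first in both replicates, with scores of 3.55 and 3.58, and replicate 2 covered all of it. The second of the shared sites in replicate 1, from 9484950 to 9488137 (3188 bp), scored 2.73 and 2.92, and the third, from 14067079 to 14071470 (4392 bp), scored 2.57 and 2.54 and started at the same base in both lists. After these 3 the scores fell to between 2.10 and 2.30 for the rest of the 10 highest-scoring shared sites, whose scores in replicate 2 ranged from 1.62 to 2.32. A pair of them lay close together, from 11053906 to 11056480 (2.28 and 1.99) and from 11066627 to 11069562 (2.19 and 2.32). The remaining ones began at 6439124 (2.30 and 1.75), 24459623 (2.20 and 2.19), 20653018 (2.12 and 1.62), 3011394 (2.10 and 1.96) and 16077291 (2.10 and 2.10). The bases covered by replicate 2 made up 87.8% or more of each site. The 10 sites were 2252 to 4392 bp long, all above the median length of 2059.5 bp in replicate 1.

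The longest sites were mostly not the strongest. The cluster of 9513 bp from 4875266 to 4884778 scored 1.02 and 0.888, and was 99.7% covered in replicate 2. The next longest, from 11030749 to 11035769 (5021 bp), scored only 0.648 and 0.689. The rest of the 10 longest measured 4166 to 4718 bp. Only 1 cluster, that at 14067079, was among both the 10 longest and the 10 highest-scoring. Of the 10, 2 lay near the telomere-side limit, 1 from 27570515 to 27575092 (4578 bp, scores of 1.13 and 0.885) and 1 from 27635026 to 27639743 (4718 bp), which replicate 2 called as 2 clusters. Coverage in replicate 2 was lowest for the cluster from 12097158 to 12101461, at 68.6%.

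Some sites departed from the close match of the replicates. The second-highest score of replicate 2, 2.94, belonged to a short cluster of 1305 bp from 8296733 to 8298037 that touched no cluster of replicate 1. The nearest cluster of replicate 1 ended 2744 bp away, and the combined list had a cluster from 8296044 to 8298042 with a score of 1.60. No other unshared member of replicate 2 scored above 0.761, and the highest unshared score in replicate 1 was 0.874, for the cluster from 11203806 to 11205899. The next unshared clusters of replicate 2, from 3522435 to 3523978 (score 0.761) and from 3525216 to 3528418 (0.672), lay side by side over 56 kb from any cluster of replicate 1, and the combined list joined them into 1 cluster from 3522162 to 3528492. The remaining ones began at 3627184 (0.620) and 20890322 (0.575). In replicate 1 the next unshared clusters began at 26899950 (0.825), 14282192 (0.698), 15712268 (0.690) and 16319945 (0.684), and that at 15712268 alone of these had no cluster in the combined list.

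Among matched pairs, the scores differed most for the cluster from 9699809 to 9701976, which had rank 85 in replicate 1 (1.29) and rank 496 in replicate 2 (0.345). Next came the cluster from 17386297 to 17388467, with 1.56 and 0.716. In the other direction the largest difference was at the cluster from 26631180 to 26635345, which scored 0.943 and 1.51, and where replicate 2 called 2 clusters over the same stretch. These 3 pairs were picked for their differences after the values were seen.

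The combined list added many short sites to those of the replicates. Of its 955 members, 495 touched clusters of both replicates, 181 touched replicate 1 only and 35 replicate 2 only. The other 244 (25.5%) touched neither, against 31.4% over the whole list. Those 244 were short, with a median of 1298 bp against 2217 bp for clusters that touched both, and low-scoring, with a median of 0.330 against 0.673. Combined clusters that touched a single replicate scored no higher, with medians of 0.304 for replicate 1 only and 0.317 for replicate 2 only, but were longer, with medians of 1895 and 1889 bp. Of the 244, 123 (50.4%) were at most 1300 bp long, and no cluster of either replicate was that short. Whether the lists had different length minimums is not stated and was not tested. Of the 244, 144 (59.0%) lay within 10 kb of a cluster of a replicate. Their highest scores were 1.27 for the cluster from 13863658 to 13864786 (1129 bp) and 1.21 for that from 18278076 to 18279128 (1053 bp), followed by those at 2244012 (0.790), 2000834 (0.770) and 8302268 (0.662). The last starts 4230 bp beyond the unmatched strong site of replicate 2. Nearly all sites of the replicates were kept: 681 of the 686 members of replicate 1 (99.3%) and 536 of the 537 of replicate 2 (99.8%) had at least 50% of their bases in the combined list.

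In both replicates the limits of the stretch fell between clusters that lay far apart. The last cluster before it ended at 1927673 in replicate 1 and at 1927684 in replicate 2, and the first members began at 2175676 and 2170786. At the telomere side the last members ended at 27651096 and 27639672, and the next clusters of 3R began at 27810540 and 27810555. In replicate 1 the scores on either side were 0.867 outside and 0.391 inside at the first limit, and 0.503 inside and 0.480 outside at the second. The combined list had its first member closer to the limit, from 2000834 to 2002404 with a score of 0.770.

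Beside the like parts of 2L, 3L and X, each without the 2 Mb at the centromere and the outermost 200 kb, 3R had the smallest share of bases in clusters in both replicates. It was 5.78% and 4.41% on 3R, 6.18% and 4.93% on 2L, 6.34% and 4.78% on 3L, and 8.03% and 5.78% on X. These ranges of 2 replicates overlap between 3R and each of 2L and 3L, and the highest on 3R and the lowest on X were both 5.78%. The median gap was longer on 3R, with 17964 and 25159.5 bp against 13233 and 15371 bp on 2L, 14809 and 20122 bp on 3L and 10174 and 13299.5 bp on X. Both values of 3R exceed both of 2L and of X, while those of 3R and 3L overlap. Long gaps were not more frequent on 3R than on 2L or 3L. Empty stretches per Mb numbered 0.973 and 1.32 on 3R, 1.20 and 1.39 on 2L, 0.985 and 1.39 on 3L, and 0.940 and 1.29 on X. The longest gaps were 371 and 399 kb on 3R, 472 and 663 kb on 2L, 434 and 408 kb on 3L, and 377 kb in each replicate on X. The number of sites per Mb was close to that of 2L, with 26.0 and 21.3 there, but fewer of them stood in crowds. On 3R 8.45% and 4.28% of the clusters were in crowds, against 23.6% and 15.3% on 2L, 23.1% and 10.9% on X, and 9.73% and 4.31% on 3L. The values for 2L and X include the densest blocks of those arms. Clusters that reached the median score of the whole list made up 40.4% and 40.6% on 3R. The shares were 42.3% and 40.9% on 2L, 40.7% and 39.0% on 3L, and 51.9% and 47.7% on X. Typical lengths were alike, with medians of 2059.5 and 2036 bp on 3R, 2102.5 and 2074 bp on 2L, 2059 and 2051.5 bp on 3L, and 2063.5 and 2018 bp on X. Recurrence was alike too: 72.3% and 93.1% of clusters were shared on 3R, 75.1% and 93.5% on 2L, 72.5% and 94.9% on 3L, and 67.2% and 91.0% on X. Arms of 1 genome are not replicates, and no test of these differences was made.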

How the data were processed

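HP2 ChIP-seq lists from 2 replicates of adult fly heads and 1 list of the replicate set were used. Bowtie 0.12.7 is the only tool the submitters' processing notes name. The authors deposited regions of significant enrichment with 1 score each, on FlyBase r5 per the file headers. The sources used here state neither the caller, nor its threshold, nor the scale of the score, and depth is unknown. Inputs enter only through the authors' calls.

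Clusters were taken by midpoint and as deposited. Bases were counted once, gaps run from an end to the next start, windows of 200 kb moved in steps of 10 kb, and shares have 95% Wilson intervals. Crowds need at least 5 clusters with gaps of at most 10 kb, empty stretches at least 150 kb between neighbouring members. Named clusters are the 10 longest and 10 highest-scoring shared ones of replicate 1, the 5 highest-scoring unshared ones of each replicate, the 5 highest-scoring combined ones that touch neither replicate, the 5 densest windows, the 5 crowds with most clusters and the 5 longest stretches empty in both. Crowds tied for the fifth place were all named. The members and rules were chosen with earlier results of these data known. No test was made, since there is 1 group. The functions recovered 6 of 6 quantities in simulated lists. The annotation at hand is on Release 6, so genes and sequences were not used here. Python 3.11.15, numpy 2.4.6, scipy 1.17.1, pandas 2.3.3 and matplotlib 3.10.9 were used.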

Additional observations from a re-analysis of the deposited data

How the results depend on the processing

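Alternatives were recomputed for 12 results, 85 values in all. Of these, 56 moved by less than the spread between replicates, the counting interval or 1.5 times, and 29 moved by more. Starting the stretch at 1 Mb or at 4 Mb, which kept most of the same clusters, moved no result by more than that. Part of the 56 was fixed in advance. The covered share and the median length, gap and score always move by less than the SD when 1 of 2 replicates is left out. With only the higher-scoring clusters, those that reached the median score of the whole list, there was a mean of 247.5 clusters (611.5 with all), 2.40% covered (5.09%), a median length of 2248.5 bp (2048 bp), a median gap of 56359 bp (21562 bp), 0 crowds (7), 60.5 empty stretches (29.5), a densest window of 9.78% (16.6%), a longest common empty stretch of 535974 bp (370877 bp) and 95.4% of replicate 2 shared (93.1%). Merging clusters within 1 kb moved only the median length, to 2065.5 bp. The combined list gave 955 clusters, 7.67% covered, a median length of 2007 bp, a median gap of 11426 bp, 33 crowds, 17 empty stretches, a densest window of 21.1%, a longest empty stretch of 306271 bp and a median score of 0.396. Requiring 80% of bases lowered the shared clusters to 64.1% in replicate 1 and 90.5% in replicate 2. Crowds numbered 0 with gaps of at most 5 kb and 27 with 20 kb. Empty stretches numbered 60.5 from 100 kb and 11.5 from 200 kb. The densest window reached 25.1% at 100 kb and 10.9% at 500 kb. The smaller window lies inside the main one and the larger one overlaps it. Fewer or more clusters, or another limit, by construction change these counts, and no further cause was tested. With 1 replicate left out, crowds ranged from 4 to 10 and the longest empty stretch from 370877 to 398594 bp; crowds are the result that rests most on 1 library, with 4 when replicate 1 was left out.

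No paired analysis was possible because both replicates form 1 group and the inputs were not analysed here. Shared clusters and bases need both replicates, so neither was left out there.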
